A study of Mus musculus with 8 samples.

Results

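The myosin-binding protein C (MyBP-C) family was examined in RNA from the tibialis anterior (TA), a fast-twitch muscle of the lower hindlimb. The members were taken by symbol from the gene table of the series. All 5 symbols, *Mybpc1*, *Mybpc2*, *Mybpc3*, *Mybph* and *Mybphl*, were found among its 16686 genes. One group was 4 wild-type (WT) mice. The other was 4 C2-/- mice, which lack most of the coding sequence of *Mybpc2*. Their allele has lost 21 exons, the second to the 22nd, and holds a Neo selection cassette between LoxP sites in that place. All 8 mice were male, on the FVBN background and 22 months old by their labels, and each gave 1 library of mRNA selected by its poly(A) tail. A second age entry in the labels, in the text on growth, conflicts with this age in the same way for both groups. The knockout is of the whole animal, and a whole muscle holds fast and slow fibres, vessels, connective tissue, nerve and blood. In such bulk RNA, fewer cells of a type and less RNA per cell cannot be told apart.

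MyBP-C proteins sit in the C-zone of the sarcomere, the part of the A-band on either side of the M-band. They bind the thick filament through their C-terminal domains and reach towards actin and the myosin heads with their N-terminal domains, and so tune how quickly cross-bridges form and let go. In adult muscle the family is split by cell type. *Mybpc2* encodes the fast isoform (fMyBP-C) of fast-twitch fibres, *Mybpc1* the slow isoform (sMyBP-C), which despite its name is made in both slow and fast fibres, and *Mybpc3* the cardiac isoform. *Mybph* encodes MyBP-H, a shorter relative that shares the C-terminal domains, and *Mybphl* a MyBP-H-like protein known from the heart, above all the atria. The comparison asked whether RNA of the other members stood at another level once *Mybpc2* was lost.

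The 5 genes lie on 5 chromosomes, with the positions given here on GRCm38 as in the gene table. *Mybpc1* (gene ID 109272) spans chr10:88518279-88605340, *Mybpc2* (233199) chr7:44501699-44524722 on the minus strand, *Mybpc3* (17868) chr2:91118022-91136573 on the plus strand, *Mybph* (53311) chr1:134193417-134201234 on the plus strand and *Mybphl* (68753) chr3:108364911-108380057 on the plus strand. For *Mybpc1* the table gives the plus strand and the GENCODE annotation of the same build the minus strand. In that annotation the coding sequences of the 3 full-length isoforms have 3375 bases (*Mybpc1*), 3411 bases (*Mybpc2*) and 3837 bases (*Mybpc3*), whereas *Mybph* has 1452 and *Mybphl* 1068.

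The knockout allele was laid over the GENCODE transcript of *Mybpc2* with 28 exons, on the assumption that its exons are numbered as in the labels. Exons 2 to 22 cover chr7:44506808-44522908 and hold 2561 coding bases, 75.1% of the coding sequence. Exon 1, with the first 19 coding bases, and exons 23 to 28, with the last 831, are kept, and these 7 exons make up 29.1% of the transcript. The sequences at both edges of the replaced part are shown because they mark where transcripts of the WT and the knockout allele part. They read 5′ to 3′ on the minus strand of chromosome 7, with kept bases in lower case and replaced bases in capitals, and cover chr7:44524571-44524589 joined to chr7:44522879-44522908, and chr7:44506808-44506837 joined to chr7:44506218-44506247.
Mybpc2 exon 1 to exon 2: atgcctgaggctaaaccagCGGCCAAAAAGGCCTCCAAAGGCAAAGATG
Mybpc2 exon 22 to exon 23: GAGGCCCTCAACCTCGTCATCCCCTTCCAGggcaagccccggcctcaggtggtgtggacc
The counts are summed per gene, so reads from the kept exons and reads across the replaced part could not be told apart.

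**Figure D1:**
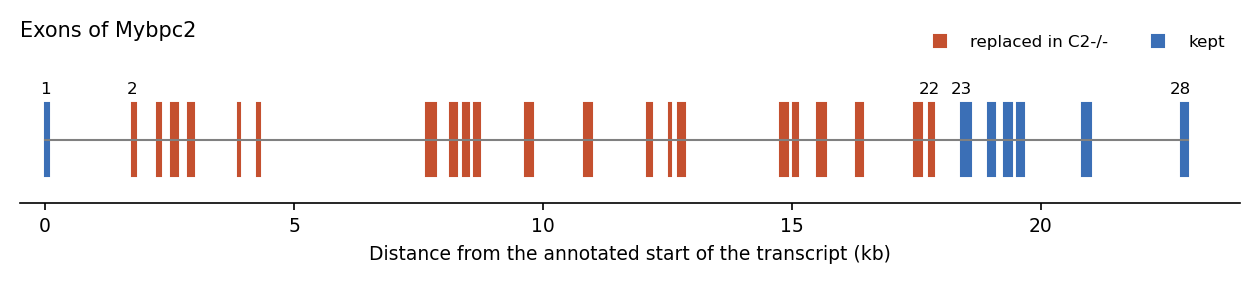
Exons of *Mybpc2* by distance from the annotated transcript start (kb), drawn to scale from left (start) to right (end), with exons 2 to 22 replaced in C2-/- and exon 1 and exons 23 to 28 kept. The 21 replaced exons fill most of the gene, and the kept exons lie at its ends.

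The targeted gene was read first, as a check of the genotype labels. *Mybpc2* had 128743, 149408, 136603 and 204231 expected counts in WT replicates 1 to 4. In C2-/- it had 115, 108, 1081 and 111 counts. The groups were far apart, and C2-/- replicate 3 kept close to 10 times as many counts as the other knockout libraries, which is still 0.670% of the mean WT level in CPM (counts scaled to library size with TMM factors). In the other 3 knockout libraries the remainder was 0.0760%, 0.0701% and 0.0672%. The log2 fold change was −8.82 (95% interval −10.92 to −6.73, adjusted p = 0.0075 by edgeR, a quasi-likelihood test with the p-values adjusted after Benjamini and Hochberg), and without C2-/- replicate 3 it was −10.46 (adjusted p = 1.96e-07). In this edgeR fit, *Mybpc2* was the 1 gene called as lower in C2-/- (above 1.5-fold, adjusted p under 0.05), which is 0.00797% of the 12542 genes tested. Counted in both directions, the calls numbered 4 in this fit. With the alternative methods they numbered 4 in limma-voom and 38 in DESeq2. The paper reports many more genes as changed in these mice, both higher and lower. Why its count is larger was not tested. *Mybpc2* was also the 1 member of the family whose groups did not overlap, against 1.36% of all tested genes that were lower without overlap.

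**Figure D2:**
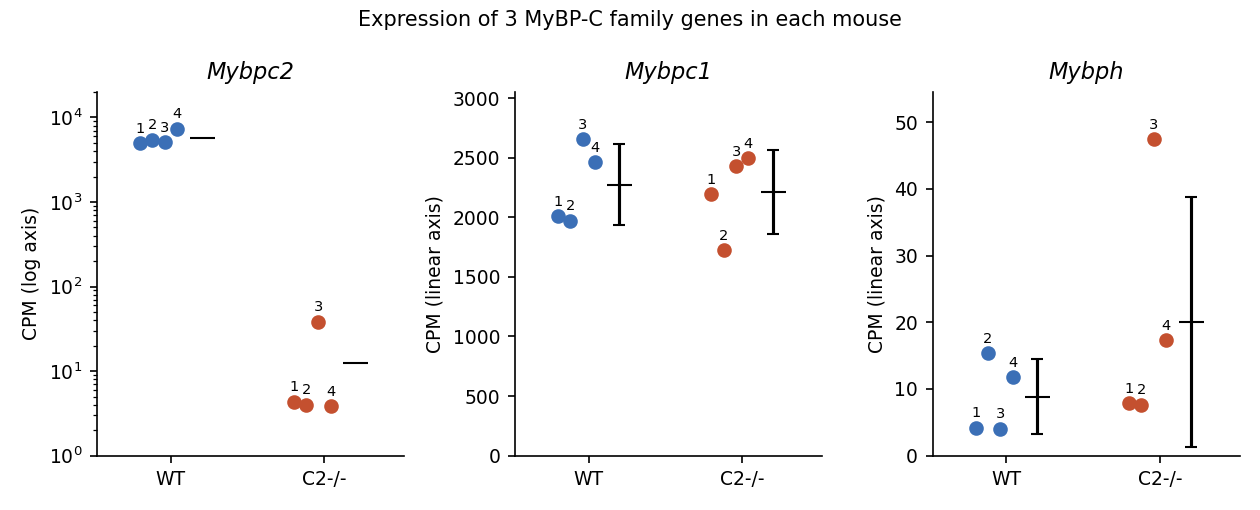
CPM of *Mybpc2* (log axis), *Mybpc1* and *Mybph* (linear axes) in each WT (blue) and C2-/- (red) mouse, with the replicate number beside each point. Horizontal marks are means, and bars (not drawn for *Mybpc2*) are SD of n = 4 mice. *Mybpc2* separated the genotypes, *Mybpc1* overlapped between 1723 and 2653 CPM, and the highest *Mybph* value, 47.4 CPM, was that of C2-/- replicate 3.

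*Mybpc1*, the gene of sMyBP-C, stayed at the same level as far as 4 mice against 4 can show. Its expression was 2007, 1971, 2653 and 2462 CPM in WT replicates 1 to 4. In C2-/- it was 2192, 1723, 2429 and 2497 CPM. The groups overlapped, since the lowest value of all came from a knockout mouse and the highest from a WT mouse. The means were 2273 ± 338 CPM (SD, n = 4) in WT and 2210 ± 350 CPM (SD, n = 4) in C2-/-. The log2 fold change was −0.04 (SE, the standard error, 0.15, adjusted p = 0.995 by edgeR), and a two-sided exact permutation test of the CPM gave p = 0.8. With each mouse left out in turn the value lay between −0.10 and 0.067, so no direction can be given. The 95% interval of the fold ran from 0.767 to 1.23. A rise of *Mybpc1* RNA by more than 1.23-fold therefore lies outside the interval, while smaller changes either way could not be seen with these mice. *Mybpc1* is spliced into many variants in muscle, and a count per gene does not show whether their proportions differed. RNA counts also do not measure protein, and the paper reports more sMyBP-C protein in the TA of aged C2-/- mice.

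Levels of different members were compared as TPM, which the authors had scaled to gene length and library. In WT, *Mybpc2* was at 2429, 2480, 2792 and 3639 TPM in replicates 1 to 4. *Mybpc1* was at 902, 824, 1332 and 1109 TPM in the same mice. The fast isoform thus exceeded the slow one in each WT muscle, with *Mybpc2* to *Mybpc1* ratios of 2.69, 3.01, 2.10 and 3.28. Among all genes ranked by TPM, *Mybpc2* stood between rank 28 and 42 in WT and *Mybpc1* between rank 72 and 140 in all 8 mice. These ranks put both among the most abundant transcripts of the muscle. *Mybph* followed at 4.12, 14.1, 4.48 and 11.7 TPM in WT, and *Mybpc3* and *Mybphl* were not detected there. This order, *Mybpc2* above *Mybpc1* above *Mybph*, was the same in all 4 WT mice without overlap between genes.

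In C2-/-, *Mybpc1* was at 997, 857, 1146 and 1229 TPM in replicates 1 to 4. *Mybpc2* was at 2.15, 2.18, 19.7 and 2.07 TPM, a level that divides reads by the length of the whole gene although most of the transcript is replaced. *Mybph* was at 7.69, 8.30, 49.0 and 18.7 TPM. *Mybpc1* was therefore the leading member in each knockout muscle. No order between *Mybph* and the remainder of *Mybpc2* is given, since it depends on the length that the remainder is divided by. Summed over the 5 members, the family stood at 3886 ± 695 TPM (SD, n = 4) in WT and 1085 ± 180 TPM in C2-/-. The share of *Mybpc1* in that sum was 26.9% ± 3.92 in WT and 97.6% ± 2.21 in C2-/-. This larger share was one of a smaller sum, for *Mybpc1* itself averaged 1042 ± 228 TPM in WT and 1057 ± 164 TPM in C2-/- (two-sided exact permutation test, p = 0.943). The 4 members other than *Mybpc2* together came to 1050 ± 226 TPM in WT and 1078 ± 176 TPM in C2-/-.

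**Figure D3:**
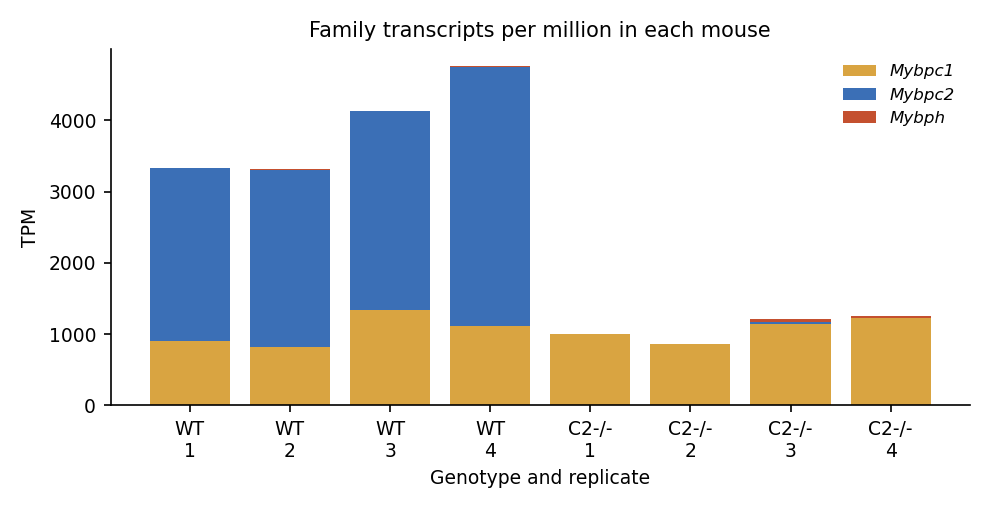
Stacked TPM of *Mybpc1*, *Mybpc2* and *Mybph* in each mouse, with genotype and replicate on the horizontal axis and bars starting at 0. *Mybpc2* makes up 67.6% to 76.5% of the WT bars and is nearly absent from the C2-/- bars, while the *Mybpc1* segment spans 824 to 1332 TPM across all 8 mice.

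The size of any replacement at the RNA level was set against what was lost. *Mybpc2* fell by 2829 TPM between the group means. The difference between the group means of *Mybpc1* was 15.4 TPM, or 0.546% of that loss, while its fitted fold gave −28.8 TPM, or −1.02%, so its sign is not settled. The difference between the group means of *Mybph* was 12.3 TPM, or 0.435%, and its fitted fold gave 10.8 TPM, or 0.383%. Without C2-/- replicate 3 the differences between the means were −14.1 TPM for *Mybpc1* and 2.96 TPM for *Mybph*. With the limits of its fitted fold applied to its WT mean, *Mybpc1* could account for between −8.60% and 8.60% of the lost *Mybpc2* TPM. The same calculation for *Mybph* gave −0.0433% to 1.51%. These limits take the WT means and the lost TPM as fixed and so leave out the spread of both. Within them, the gain of neither paralog exceeded 8.60% of the lost transcript. To set the family against the filament that carries it, TPM were also divided by the summed TPM of the adult skeletal myosin heavy chain genes *Myh1*, *Myh2*, *Myh4* and *Myh7*. Per 100 TPM of these, the family stood at 26.1 ± 4.43 TPM (SD, n = 4) in WT and 6.30 ± 1.59 TPM in C2-/-, and *Mybpc1* alone at 7.01 ± 1.47 TPM and 6.15 ± 1.59 TPM.

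*Mybph*, the gene of MyBP-H, was the member with the largest estimated increase, but it did not pass the test. Its expression was 4.20, 15.4, 4.07 and 11.8 CPM in WT replicates 1 to 4. In C2-/- it was 7.84, 7.63, 47.4 and 17.3 CPM. The groups overlapped, because 2 WT mice were above 2 knockout mice, and 1 knockout mouse, replicate 3, was well above all the others. The means were 8.87 ± 5.66 CPM (SD, n = 4) in WT and 20.1 ± 18.8 CPM (SD, n = 4) in C2-/-. The log2 fold change was 1.18 (SE 0.63, unadjusted p = 0.0906, adjusted p = 0.968 by edgeR), and the two-sided exact permutation test of the CPM gave p = 0.343. The interval of the fold, 0.857 to 5.96, leaves room for a slight fall and for a several-fold rise. Of all genes tested, 4.3% had a fold above 1.5 in this direction at any p. Without C2-/- replicate 3 the log2 fold change was 0.30, and without WT replicate 2 it was 1.59 (unadjusted p = 0.0365, adjusted p = 0.803 by edgeR).

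**Figure D4:**
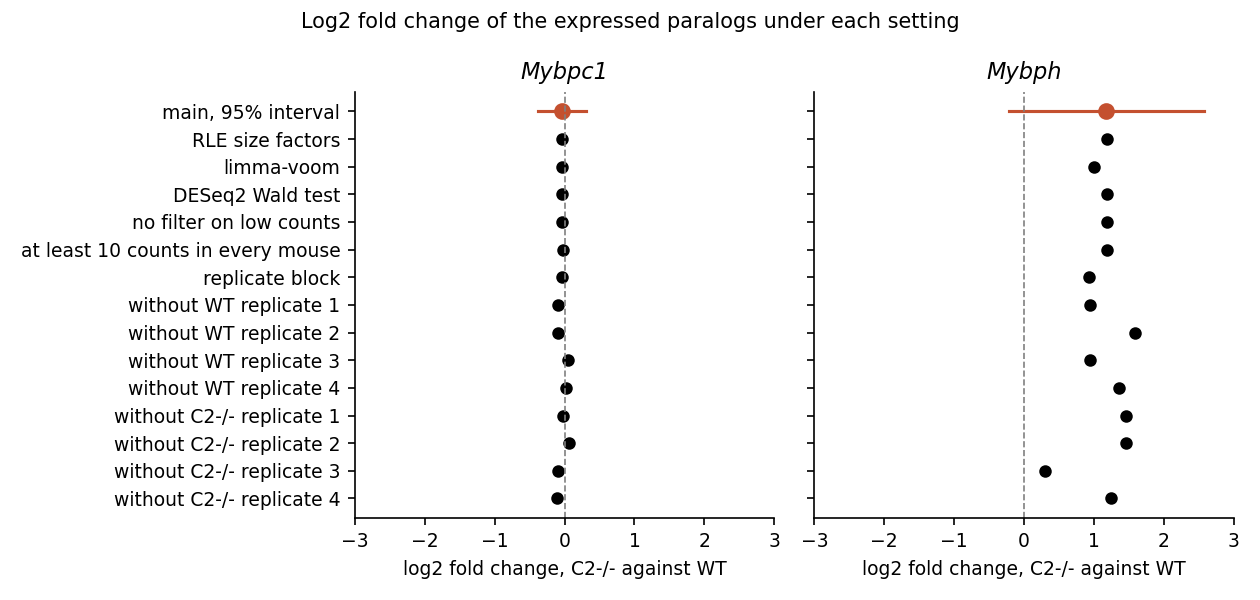
Log2 fold change (C2-/- against WT) of *Mybpc1* and *Mybph* under each processing setting and with each mouse left out, with the main value and its 95% interval in red at the top and 0 as a dashed line. *Mybpc1* lies between −0.10 and 0.067 throughout, whereas *Mybph* lies above 0 throughout but ranges from 0.30 without C2-/- replicate 3 to 1.59 without WT replicate 2.

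The cardiac isoform and the MyBP-H-like gene gave no signal in either genotype. *Mybpc3* had 0 counts in 7 libraries and 1 count in C2-/- replicate 3. *Mybphl* had 0 counts in 7 libraries and 1 count in C2-/- replicate 2. Both were under the low-count filter, so 3 of the 5 members were tested, and no fold is given for them. A count of 0 allows up to 3 counts, or 0.101 to 0.118 CPM by library, and this limit covers counting error only. At that depth, cardiac *Mybpc3* was not detectable in the fast muscle that had lost its own isoform, while *Mybpc1* was at 1723 CPM or more in each of the same mice.

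Members of a gene family can share reads, so the coding sequences were aligned with each other. *Mybpc1* and *Mybpc2* were identical at 62.8% of aligned bases, *Mybpc2* and *Mybpc3* at 66%, *Mybpc2* and *Mybph* at 61.8%, and *Mybph* and *Mybphl*, the closest pair, at 72.8%. The longest run of identical bases between any 2 members was 21 bases, between *Mybpc1* and *Mybpc2*. It is shown in capitals with 12 bases on either side. This run covers coding bases 1649 to 1669 of *Mybpc1* and 1688 to 1708 of *Mybpc2*, counted from the start codon. Stretches of read length that match with some differing bases were not searched for.
Mybpc1: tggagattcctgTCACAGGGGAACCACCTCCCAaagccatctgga
Mybpc2: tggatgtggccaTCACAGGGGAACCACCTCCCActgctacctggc
The bases around it differ at many places. The longest identical run of *Mybph* and *Mybpc2*, 14 bases, falls on the join of exons 22 and 23 of *Mybpc2* shown above.
Mybpc2: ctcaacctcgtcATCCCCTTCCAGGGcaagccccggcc
Mybph: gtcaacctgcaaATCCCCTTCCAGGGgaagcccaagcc
The read length is not given in the sources used here.

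The isoforms were next set beside the fibre types they are named for. The muscle was fast by its myosins in every mouse, with *Myh4*, the gene of the fastest heavy chain (IIB), at 8130 to 19650 TPM in WT and 10538 to 18574 TPM in C2-/-. *Myh7*, the slow heavy chain gene, was at 0.76, 0.10, 0.67 and 6.10 TPM in WT replicates 1 to 4 and at 0.54, 0.15, 0.53 and 0.20 TPM in C2-/-. *Mybpc1* was thus abundant in muscles with hardly any slow myosin RNA, with *Mybpc1* to *Myh7* TPM ratios of 182 to 8239 in WT and 1847 to 6144 in C2-/-. In WT replicate 4, the mouse with the most *Myh7*, *Mybpc1* was at 2462 CPM, inside the range of the other mice.

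Genes of slow and fast fibres were counted in full. Of 80 tested genes in the 7 lists used here, 0 had an adjusted p under 0.05 in edgeR, limma-voom or DESeq2, against 0.0319% of all tested genes in edgeR. At an unadjusted p under 0.05 there were 8 in edgeR (5 higher, 3 lower), 6 in limma-voom and 9 in DESeq2. In edgeR with a block for replicate number, 9 were higher and 3 lower. Of these settings, the share of all tested genes past that mark was counted for the main edgeR fit only. Of all tested genes, edgeR put 5.29% past that mark, 3.38% as higher and 1.91% as lower, and estimated 45.8% as higher at any size. Of 11 slow fibre genes, 3 were estimated higher and 8 lower in C2-/-, with a median log2 fold change of −0.16 against −0.02 over all tested genes, and 2 of the 8 had an unadjusted p under 0.05. The split was 5 to 6 with a median of −0.03 without WT replicate 1, and the median was lowest, −0.33, without C2-/- replicate 4. *Myl2*, the slow regulatory light chain gene, was at 1.35, 1.86, 1.34 and 4.13 CPM in WT and at 0.833, 0.372, 0.568 and 0.971 CPM in C2-/-. Its groups did not overlap, at a low level (log2 fold change −1.66, SE 0.45, unadjusted p = 0.00402, adjusted p = 0.615 by edgeR). Lower values without overlap were seen for 1.36% of all tested genes. *Myh7* had a log2 fold change of −2.47, with 20.9 CPM in WT replicate 4 and at most 2.62 CPM in any other mouse. Its log2 fold change was −0.51 without WT replicate 4 and −1.38 in limma-voom (unadjusted p = 0.270 by limma-voom). The slow troponin genes *Tnni1*, *Tnnt1* and *Tnnc1* stood at log2 fold changes of 0.04, −0.95 and −1.04, none with an unadjusted p under 0.05.

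Of 12 fast fibre genes, 6 were estimated higher and 6 lower, with a median log2 fold change of −0.00 (−0.10 without WT replicate 3, 0.07 without WT replicate 4). In the main fit, 0 of them had an unadjusted p under 0.05. *Myh1* passed that mark without WT replicate 3 (log2 fold change 0.52, unadjusted p = 0.0103 by edgeR) and with the replicate block (0.38, unadjusted p = 0.0196 by edgeR). The log2 fold changes were 0.09 for *Myh4*, 0.35 for *Myh1*, the IIX heavy chain gene, 0.10 for the tropomyosin gene *Tpm1* and −0.18 for *Atp2a1*, which encodes the calcium pump of fast fibres. *Mybpc2* was therefore far from the other fast fibre genes, whose estimates lay near 0.

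Among 13 genes of thick filament partners and their upkeep, 8 were estimated higher and 5 lower, with a median of 0.09 and 0 at an unadjusted p under 0.05. Without C2-/- replicate 3 they were 6 and 7, with a median of −0.00. Titin, encoded by *Ttn*, is the spring and ruler along which MyBP-C is laid out, with a log2 fold change of 0.27 (SE 0.32). Myomesin-1, encoded by *Myom1*, links thick filaments at the M-band, with a log2 fold change of −0.06 (SE 0.16). *Myom3* was at −0.29 and *Obsl1*, which encodes a partner of titin and the myomesins, at 0.26. *Trim63*, the ubiquitin ligase MuRF1, had a log2 fold change of −1.21 with an unadjusted p of 0.0610, and WT replicate 2 was at 682 CPM where no other mouse exceeded 179 CPM. Without WT replicate 2 the log2 fold change of *Trim63* was −0.08. MyBP-C isoforms are regulated by phosphorylation, so 15 genes of kinases and phosphatases were counted too. Of these, 6 were estimated higher and 9 lower, with a median of −0.04 and 0 at an unadjusted p under 0.05. They were 2 and 13 without WT replicate 2 (median −0.08, 1 of the 13 at an unadjusted p under 0.05), and 8 and 7 without WT replicate 3 (median 0.05). The 3 with the smallest p were *Prkd1* (protein kinase D1), *Rps6ka1* (a ribosomal S6 kinase) and *Ppp2ca* (the catalytic subunit of protein phosphatase 2A), at log2 fold changes of −0.52, −0.29 and −0.22.

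Of 10 cardiac genes, 8 were in the table and 5 were tested, 3 of them estimated higher and 2 lower, with a median of 0.10, against 2 and 3 with a median of −0.15 without C2-/- replicate 1. *Actc1*, the cardiac actin gene, which is also active in developing skeletal muscle, was at 38.3, 15.3, 8.74 and 15.02 CPM in WT and at 45.3, 30.5, 49.2 and 23.4 CPM in C2-/-. Most knockout values were above most WT values, with overlap (log2 fold change 0.94, SE 0.41, unadjusted p = 0.0431, adjusted p = 0.920 by edgeR). *Actc1* was also a gene that the study itself picked out from these mice, so its direction is not independent evidence. The paper places it among the most changed of its differentially expressed genes, whereas it was not called here. With each mouse left out, its log2 fold change ran from 0.70 (without WT replicate 3) to 1.51 (without WT replicate 1). The log2 fold changes of *Tnnt2* and *Myl4* were −0.55 and 0.63. *Tnni3*, *Nppa* and *Ryr2* were, like *Mybpc3*, under the filter.

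*Mybph* is known from developing muscle, and genes of developing or denervated muscle were therefore set beside it. Of 10 such genes, 3 were estimated higher and 7 lower, with a median log2 fold change of −0.35. In limma-voom, the method that the study names, 5 were higher and 5 lower with a median of −0.01, so the list leaned to neither side there. The list turned to 8 higher and 2 lower, with a median of 0.60, without WT replicate 2, in which 8 of the 10 genes were at their highest. There, 2 were higher and 1 lower at an unadjusted p under 0.05, a mark that 5.89% of all genes passed without that mouse. *Myh3*, the embryonic myosin heavy chain gene, was at 1.97, 1.61, 2.43 and 1.23 CPM in WT and at 2.61, 1.49, 8.76 and 3.09 CPM in C2-/-. *Myh8*, the perinatal one, was at 1.74, 1.61, 4.26 and 1.92 CPM in WT and at 2.35, 4.02, 7.20 and 4.26 CPM in C2-/-. Both were highest in C2-/- replicate 3, the mouse with the highest *Mybph*, and both had overlapping groups. Their log2 fold changes were 1.14 (unadjusted p = 0.0406, adjusted p = 0.919) and 0.91 (unadjusted p = 0.0433, adjusted p = 0.920) by edgeR. *Chrnd*, a subunit gene of the acetylcholine receptor, ranged from 3.87 to 9.08 CPM in WT and from 2.83 to 3.82 CPM in C2-/-. It went the other way without overlap, a state that 1.36% of all tested genes shared in that direction. Its log2 fold change was −0.84 (unadjusted p = 0.0121, adjusted p = 0.755 by edgeR). Without C2-/- replicate 3, 0 genes of the list were higher at an unadjusted p under 0.05, 1 was lower, and the median was −0.49, where 4.45% of all genes passed that mark. The mean level of the list, as log2 CPM centred on all mice, was 0.552 in C2-/- replicate 3 and 1.02 in WT replicate 2 and between −0.389 and −0.0585 in the other 6 mice. The part of such a state of the muscle in the *Mybph* values was not tested.

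**Figure D5:**
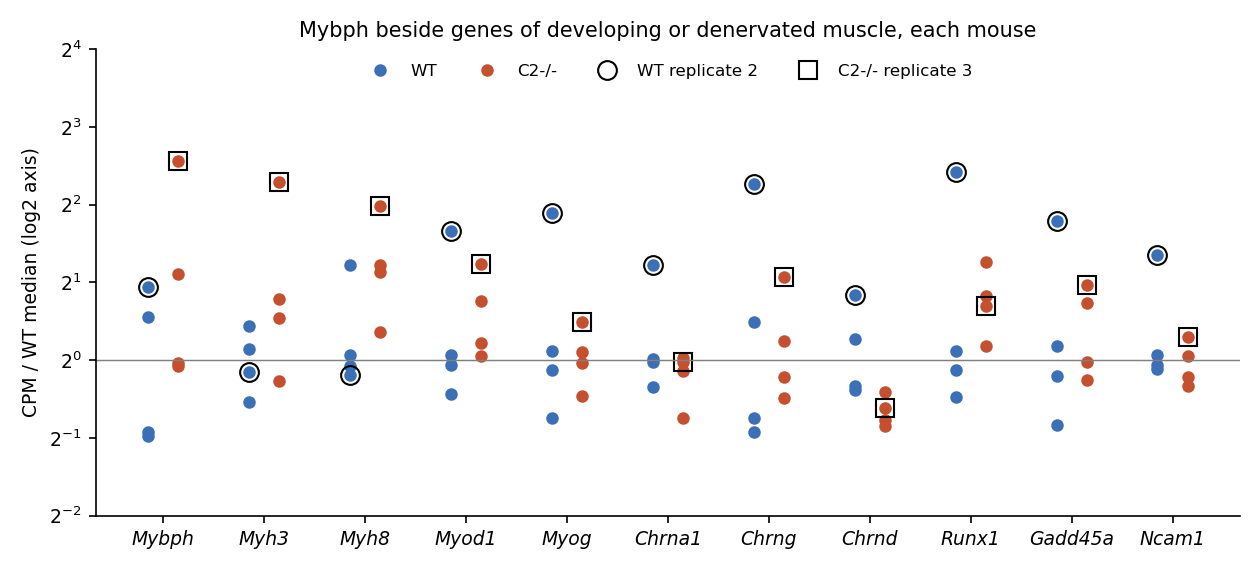
CPM of *Mybph* and of all 10 listed genes of developing or denervated muscle in each mouse, divided by the WT median of the gene (log2 axis), with WT in blue and C2-/- in red. The square marks C2-/- replicate 3, which is highest for *Mybph*, *Myh3* and *Myh8*, and the circle marks WT replicate 2, which is highest for the 8 other genes.

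Markers of other cell types (endothelium, macrophages, fibroblasts, satellite cells, Schwann cells, fat, tendon and blood) were counted last. Of 14 tested, 10 were estimated higher and 4 lower in C2-/-, with a median log2 fold change of 0.14, and 2 had an unadjusted p under 0.05. Without WT replicate 4 they were 7 and 7 with a median of 0.06, without WT replicate 3 the median was 0.34, and in limma-voom it was 0.37. The 2 genes with an unadjusted p under 0.05 were *Tnmd*, a tendon gene, at 1.43 and *Pdgfrb*, a gene of pericytes and fibroblasts, at 0.33. The fat gene *Adipoq* followed at 0.93. The mean level of the list ran from −0.222 to −0.00510 in WT and from 0.0463 to 0.267 in C2-/-, without overlap. The groups overlapped for each of the other lists. Among single genes, 2.03% of those tested were higher without overlap. The mean gives each gene the same weight, also those at a low level such as *Tnmd* (0.219 to 3.16 CPM). The part of this list level in the values of the family was not tested.

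To see which genes varied in step with the expressed paralogs, log2 CPM were taken as deviations from the mean of each genotype and correlated over the 8 mice. The values are descriptive, since 12542 genes were searched with 8 points that share library, depth and scaling. For *Mybpc1* the closest were *Usp11* (Pearson's r = 0.97, Spearman's rho = 0.857), *Yy2* (0.96, 0.881) and *Chst3* (0.96, 0.952), and 25 genes had an r of at least 0.9. For *Mybph* they were *Xpo5* (0.97, 0.905), *Rpn2* (0.97, 0.762) and *Arl6ip5* (0.97, 0.929), with 28 genes at 0.9 or more. No other member of the family was among the 3 closest of either.

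Genes beside or over the members were read because counts of overlapping genes can mix. Whether the counting used the strand of the reads is not given in the sources used here. *Fam71e1* lies over the 3′ end of *Mybpc2* (chr7:44496588-44504266) and was near 1 CPM in both genotypes, with a log2 fold change of −0.18. *Emc10*, which encodes a subunit of the membrane protein complex of the endoplasmic reticulum, is the nearest gene beyond it (chr7:44489938-44496524). It was at 45.3, 44.7, 42.3 and 41.7 CPM in WT and at 94.1, 92.6, 79.4 and 90.6 CPM in C2-/-. The groups did not overlap, a state that 2.03% of all tested genes shared in this direction, and *Emc10* was 1 of 3 genes called as higher, 0.0239% of those tested (log2 fold change 1.04, SE 0.10, adjusted p = 0.00482 by edgeR). The gene on the other side, *Spib*, was under the filter, with at most 0.298 CPM. *Adora1*, over the 3′ end of *Mybph*, was below 0.75 CPM in all mice (log2 fold change −0.71), and *Madd*, over the 3′ end of *Mybpc3*, was at 1.97 to 5.21 CPM (0.17). The interval that the table gives for *Rcor3* runs along most of chromosome 1 and so takes in *Mybph*. *Rcor3* was at 16.2 to 21.1 CPM (log2 fold change −0.04), and its lowest value fell in C2-/- replicate 3, where *Mybph* was highest.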

How the data were processed

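Expected counts per gene and TPM were deposited by the authors in 1 table for the 8 mice. Per the paper's methods, reads were aligned with HISAT to GRCm38.p6 and counted with featureCounts. The submitters' processing notes name HISAT, Bowtie2 and DESeq2. Per mouse, 5.5% to 6.53% of the counts were not whole, so the deposited values were taken to be expected counts. How the fractions arose is not given in the sources used here. The counts were rounded before the tests. The deposited TPM were scaled by the authors to gene length and library, and served to compare levels between genes. The 8 FPKM columns and the authors' own fold changes, p-values and q-values were not used.

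Of 16687 rows, 16686 had a gene ID, and 24 symbols were restored from RefSeq by gene ID. Total counts lay between 25425993 and 29747692 per mouse. PCR reads without molecular identifiers are not independent molecules. CPM were scaled by TMM factors (0.929 to 1.035). Genotypes were compared over all 12542 genes left by edgeR's filter on low counts, with edgeR's quasi-likelihood test (edgeR 4.0.16, R 4.3.3) and Benjamini-Hochberg adjustment. The study's methods name limma and voom, which were run as an alternative (limma 3.58.1), as was DESeq2 1.42.0. Calls needed more than 1.5-fold and an adjusted p below 0.05. CPM and TPM of single genes were compared with two-sided exact permutation tests (scipy 1.17.1), whose smallest p with 4 mice a group is 0.0286. The level of a list is the mean of its genes' log2 CPM (prior count 2). The fits were first tested on simulated data in which 200 genes differed. Positions are those of the table, and sequences and exons are from GENCODE M21, of the same build, aligned with Biopython 1.88.

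The members, lists and tests were chosen with earlier results of these data known. Named genes are the members, the 3 genes of each list with the smallest p, 8 genes named whatever their values (*Myh7*, *Myh4*, *Tnni1*, *Tnnt1*, *Myl2*, *Myom1*, *Ttn* and *Actc1*), the 3 genes most like each tested paralog, and genes overlapping a member or next to *Mybpc2*. *Myh1*, *Myh2*, *Myh4* and *Myh7* were summed as the adult skeletal heavy chains. The mice of a group are separate animals by their labels. Both groups carry the replicate numbers 1 to 4. Further alternatives were RLE size factors, no low-count filter, a minimum of 10 counts in all mice, a fold cutoff of 0.5 on the log2 scale, a block for replicate number, and each mouse left out. The difference in TPM without C2-/- replicate 3 was added after the data had been seen.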

Additional observations from a re-analysis of the deposited data

Results flagged for a closer look

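In 80 groups of 4 mice (the tested genes named here in each genotype), 7 had a lowest or highest mouse whose gap to the next took up more of the group's range than Dixon's 95% critical value, and chance gives about 1 in 20. *Mybpc2* was at 38.4 CPM in C2-/- replicate 3, where the next knockout mouse was at 4.35 CPM. *Myh7* was at 20.9 CPM in WT replicate 4, where the next was at 2.62 CPM. *Trim63* was at 682 CPM in WT replicate 2, where the next was at 179 CPM, and at 131 CPM in C2-/- replicate 2, where the next was at 108 CPM. *Myh8* was at 4.26 CPM in WT replicate 3, where the next was at 1.92 CPM. *Adipoq* was low in WT replicate 1, at 0.771 CPM against 2.43 CPM for the next. *Rcor3* was low in C2-/- replicate 3, at 16.2 CPM against 20.0 CPM for the next. The highest *Mybph* value, 47.4 CPM in C2-/- replicate 3, was not among these.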

How the results depend on the processing

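Of the family, *Mybpc2* was called in every setting, with log2 fold changes from −10.46 to −8.52 and adjusted p up to 0.0419 when each mouse was left out. *Mybph* stayed above 0 and was called in no setting (0.30 to 1.59 with each mouse left out, adjusted p of at least 0.730 over all settings), with unadjusted p of 0.0365 without WT replicate 2, 0.0464 without C2-/- replicate 1 and 0.0440 without C2-/- replicate 2 by edgeR. *Mybpc1* was called in none, and changed sign when mice were left out (−0.10 to 0.067, above 0 without WT replicate 3, WT replicate 4 or C2-/- replicate 2). *Mybpc3* and *Mybphl* have 1 count each over all libraries. They entered the fit without the low-count filter, and no fold is given from it. The number of genes called was 4 in the main test, 38 in DESeq2 and between 4 and 7 with each mouse left out, with 7 without WT replicate 2. The replicate numbers correlated at 0.267, 0.042, −0.0507 and 0.0212 in their deviations from the group means. By the same measure, 2 of 8 mice correlated best with their own number. Whether mice of the same number share more than the number cannot be told from these values. With the replicate block the calls numbered 4, and the log2 fold changes were −9.69 for *Mybpc2*, −0.04 for *Mybpc1* and 0.92 for *Mybph*. Of the other named genes, 8 changed sign, each only when a mouse was left out, with log2 fold changes of −0.08 to 0.36 for *Myh4*, −0.24 to 0.34 for *Tnni1*, −0.16 to 0.050 for *Myom1*, −0.064 to 0.12 for *Xpo5*, −0.076 to 0.014 for *Rpn2*, −0.42 to 0.059 for *Fam71e1*, −0.025 to 0.44 for *Madd* and −0.068 to 0.035 for *Rcor3*. With the replicate block the genes of developing or denervated muscle were 5 higher and 5 lower (median −0.08).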
